A study of Homo sapiens with 18 samples.

Results

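MNNG/HOS is an established human osteosarcoma cell line. In the arrays described here, ZsGreen-transduced MNNG/HOS cells had been grown as orthotopic bone tumors in mice, and tumor cells that still held the membrane dye PKH26 (High) were compared with tumor cells that had diluted it (Low). The labels call the High cells tumor-initiating cells and the Low cells bulk tumor cells. The comparison used 8 of the 18 arrays of the series, a High and a Low array from each of 4 tumors, MNNG-1231, MNNG-1232, MNNG-1233 and then MNNG-1235, the order in which values are given throughout. Each tumor is 1 replicate. Every gene was considered, and 14418 of 19775 genes reached the signal filter and were tested. All 8 samples came from the same transduced line, so none is a patient tumor, and the soft tissue part of each tumor was what had been dissected and sorted. Per the series design, 150000 High cells and 700000 Low cells were frozen from each tumor, and 100 ng of total RNA was labelled for each array.

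PKH26 is a lipid dye that is shared out between daughter cells, so a cell that stays bright has divided less since it was loaded than a cell that has lost the dye. Dye retention is therefore used to look for slowly cycling cells, among which cells that can start tumors or withstand drugs have been sought. Cells that divide express the kinesins and kinases of the mitotic spindle and the enzymes of DNA replication, and many of these genes are switched on in phases by E2F factors and by complexes that bind CCAAT and CHR elements in their promoters. The sort selects on dye and on the tumor cells' own fluorescence, so each array averages the RNA of many cells, and fewer cells of a type and less RNA per cell cannot be told apart.

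The High arrays differed from the Low arrays in measures that concern the whole array. The spread of the log2 signal over probe sets, as its interquartile range, was 2.844, 3.07, 2.764 and 3.183 on the High arrays and 3.289, 3.316, 3.403 and 3.364 on their Low arrays. The hybridization controls, bacterial sequences added to every sample, averaged 12.19 ± 0.648 on High and 11.06 ± 0.0673 on Low arrays (SD, n = 4 each). The GAPDH 3' minus 5' signal, which grows as RNA is shorter, was 0.593 ± 0.109 and 0.378 ± 0.0349. Each of these measures separated the groups without overlap (exact two-sided permutation test, p = 0.0286, the smallest that 4 against 4 arrays can give, and 0.0357 after adjustment over 5 measures). With the arrays paired by tumor the exact sign-flip test gave p = 0.125, the smallest that 4 pairs allow, so none passed, although the direction was the same in 4 of 4 tumors. The same 3' minus 5' signal for ACTB went the other way, at 1.131 on High and 1.57 on Low arrays, and the groups overlapped (exact two-sided permutation test, p = 0.0857). The array name also carries a date tag of unstated meaning. All 4 High arrays and the Low array of tumor MNNG-1231 share a tag, and the Low arrays of the other 3 tumors share another, so tag and fraction cannot be told apart outside tumor MNNG-1231.

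**Figure D1:**
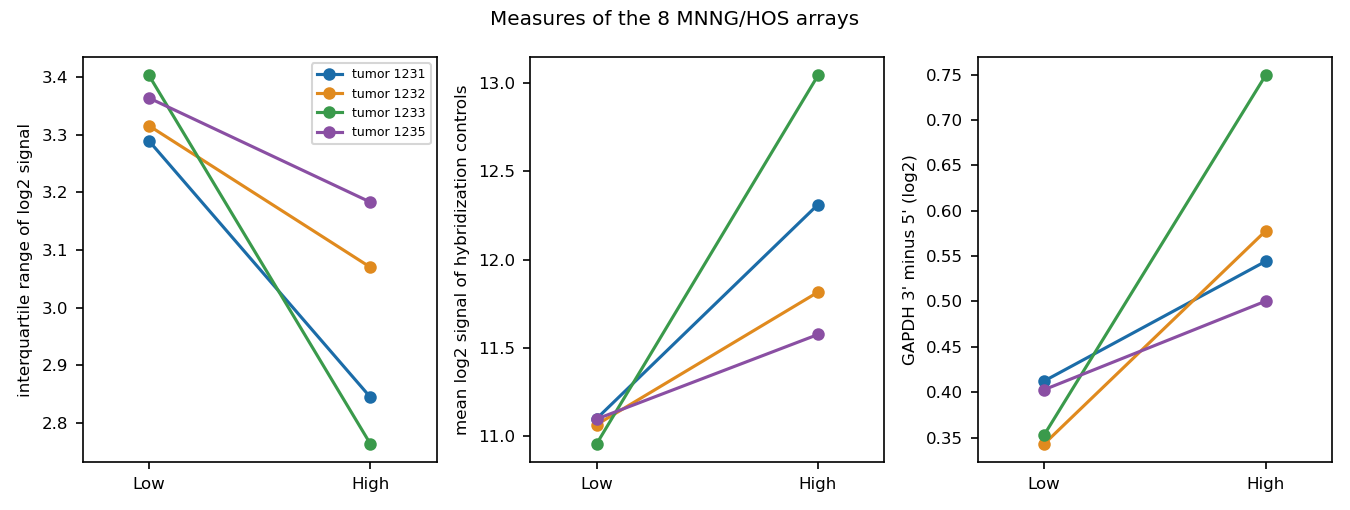
Interquartile range of log2 signal, mean log2 signal of the hybridization controls and GAPDH 3' minus 5' signal (log2) on the Low and High array of each of the 4 tumors, joined by a line. Tumor MNNG-1233 shows the widest gap in all 3 panels and tumor MNNG-1235 the narrowest.

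A paired limma fit (tumor as a block, Benjamini-Hochberg adjustment, adjusted p under 0.05) called 5458 genes between the fractions, 37.9% of those tested. Of these, 1750 genes were higher in High cells (12.1% of genes tested) and 3708 were lower (25.7%). The higher genes thus made up 32.1% of the calls, a share that became 16% when the arrays were centred on their medians and 84.6% after the second quantile normalization described next. Most of the differences were small: 65 called genes were over 2-fold higher (0.451%) and 85 over 2-fold lower (0.59%). Differences are written here and below as High minus Low in log2, and all genes means the genes tested. Their median difference was -0.186. It depended on the filter, at 0.004 over 19775 genes with no filter and -0.236 with the filter on the mean of the 8 arrays. Among the genes tested the median was -0.276 in tumor MNNG-1231, -0.0738 in tumor MNNG-1232, -0.249 in tumor MNNG-1233 and -0.0747 in tumor MNNG-1235. The tumors also differed in how many genes moved. Tumor MNNG-1233 had 891 genes over 2-fold higher and 1894 over 2-fold lower, tumor MNNG-1231 had 265 and 627, tumor MNNG-1232 had 59 and 43, and tumor MNNG-1235 had 37 and 6. The order of the tumors by gap in interquartile range or in hybridization control signal was the same as this order, with tumor MNNG-1233 first and tumor MNNG-1235 last. Across the 14418 genes, the differences of pairs of tumors correlated with r between 0.516 and 0.771. Genes share an array and are not independent, so no p is given. In all 4 tumors 2728 genes were higher and 6027 were lower. Without tumor MNNG-1231 only 3 genes were called, CELF2, RNF5 and CXCL14, all higher, while the median difference of all genes was -0.149. With the date tag as a covariate 0 genes passed the limma threshold, 2815 had an unadjusted p under 0.05, and each difference was that of tumor MNNG-1231.

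The direction of a gene's difference went with its brightness. With the genes ordered by mean signal and cut into 10 equal bins, the dimmest bin had a median difference of 0.308 and the eighth bin one of -0.387. In tumor MNNG-1233 the corresponding values were 0.607 and -0.638, and in tumor MNNG-1235 they were 0.0897 and -0.159. When all 18 arrays were brought to a single distribution by a second quantile normalization, 33 genes were called higher (0.229% of genes tested) and 6 lower (0.0416%), and the median of all genes became 0.0111. Fold changes below are those of the deposited values. A gene said to hold after rescaling passed the threshold in the same direction after the second quantile normalization.

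**Figure D2:**
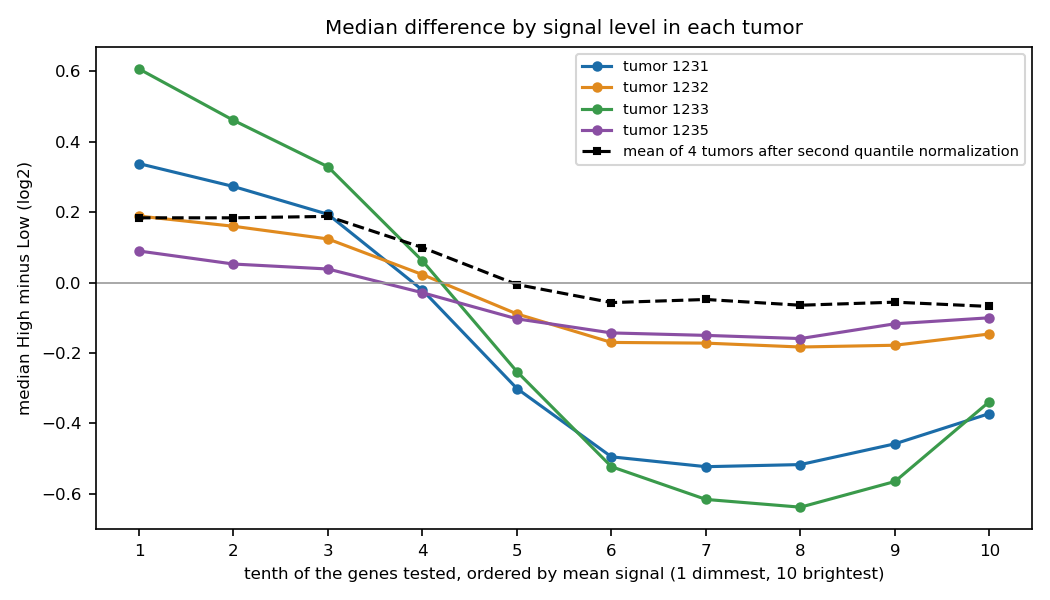
Median High minus Low (log2) in 10 equal groups of genes ordered by mean signal over the 8 arrays, for each tumor (coloured lines) and, after a second quantile normalization, for the paired fit (dashed line). Dim genes lie above 0 and bright genes below it, with the steepest slope in tumor MNNG-1233 and the flattest in tumor MNNG-1235.

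The largest differences were increases. In every tumor 21 genes were over 2-fold higher in High cells, and 0 genes were over 2-fold lower in every tumor. All 21 were also over 2-fold higher in every tumor after rescaling, where TMEFF2 and KCNA3 no longer passed the threshold. They include an RNA-binding protein, secreted factors and genes known from myeloid cells.

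CELF2, an RNA-binding protein that acts on splicing and mRNA stability, showed the largest increase. It read 11.71, 10.74, 11.03 and 10.21 on the High arrays and 7.90, 6.46, 7.19 and 6.80 on the Low arrays. Every High array lay above every Low array, by more than 2 log2 units. The paired difference was 3.83 ± 0.16 (SE, n = 4 tumors), a 14.3-fold higher signal (limma, adjusted p = 1.61e-07). All 4 of its tested probe sets rose, the other 3 by less, at 0.476, 0.838 and 2.70, and the difference was 1.21 with the probe sets averaged.

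RNF5, a ubiquitin ligase of the endoplasmic reticulum, followed. Its signal was 10.72, 9.26, 9.92 and 8.69 in High and 7.05, 6.19, 7.06 and 6.20 in Low cells, a difference of 3.02 ± 0.18 (limma, adjusted p = 3.91e-06). The groups did not overlap, and tumor MNNG-1231 had the largest step. A near-identical pseudogene of RNF5 exists and a single probe set stands for the gene, so which transcript was measured is uncertain. RNF19B, also a ubiquitin ligase, rose by 1.69 ± 0.15 with both of its probe sets. WDR26, a subunit of the CTLH ubiquitin ligase complex, rose by 1.66 ± 0.19 on its brightest probe set, while the other 3 probe sets were not called and lay between -0.406 and 0.0922 and the average over probe sets, 0.28, lost the call.

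Of the secreted factors, CXCL14, a chemokine, read 9.97, 9.04, 9.66 and 8.55 in High cells and 7.17, 6.60, 7.05 and 6.10 in Low cells. Its difference varied little between tumors, at 2.57 ± 0.14, or 5.94-fold (limma, adjusted p = 1.93e-06), and 1.08 with its probe sets averaged. IGF1, the growth factor that signals through the IGF1 receptor, read 8.89, 8.23, 7.89 and 7.94 in High and 6.42, 6.09, 6.30 and 5.95 in Low cells. The lowest High array was well above the highest Low array, and the difference was 2.05 ± 0.16 with both probe sets called. THBS4, a thrombospondin of the extracellular matrix, was already bright in Low cells, at 8.71, 7.78, 8.52 and 7.55, and read 10.29, 9.29, 10.17 and 9.50 in High cells. That is an increase of 1.67 ± 0.14. CADM1, a cell adhesion molecule of the immunoglobulin family, rose by 2.30 ± 0.21, from a Low range of 7.62 to 9.74 to a High range of 9.84 to 11.79. Its other probe sets differed by 1.196, which was called, and by 0.174, which was not, and the difference was 0.71 with the probe sets averaged. CADM1 is the member of these 12 whose groups came closest to each other.

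In tumor MNNG-1231, whose arrays share a date tag, the 12 named increases ranged from 1.58 (THBS4) to 3.81 (CELF2), and in tumor MNNG-1235 from 1.07 to 3.41. Without tumor MNNG-1231 they ranged from 1.42 to 3.84, against 1.65 to 3.83 with it. The rule that chose these genes used the values of all 4 tumors, so the ranges are a description and no check on the date tag.

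Several genes that are known from macrophages, osteoclasts or other white blood cells rose as well. AIF1, a calcium-binding protein of macrophages, read 10.33, 9.67, 10.17 and 8.86 in High and 7.87, 7.35, 7.38 and 7.08 in Low cells, a difference of 2.34 ± 0.17 (limma, adjusted p = 2.84e-05). Its 3 called probe sets are all of the x_at type, and its remaining tested probe set, at 0.351, was not called. CORO1A, a coronin that binds actin in leukocytes, rose by 1.93 ± 0.17. ATP6V0D2, a subunit of the proton pump that osteoclasts use, rose by 1.95 ± 0.18 on the representative probe set, and all 3 of its probe sets were called. SPI1, the myeloid transcription factor PU.1, read 8.07, 6.93, 7.64 and 7.47 in High cells and 6.12, 5.69, 5.83 and 5.87 in Low cells, a difference of 1.65 ± 0.15. For SPI1 and CORO1A a single probe set was tested.

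**Figure D3:**
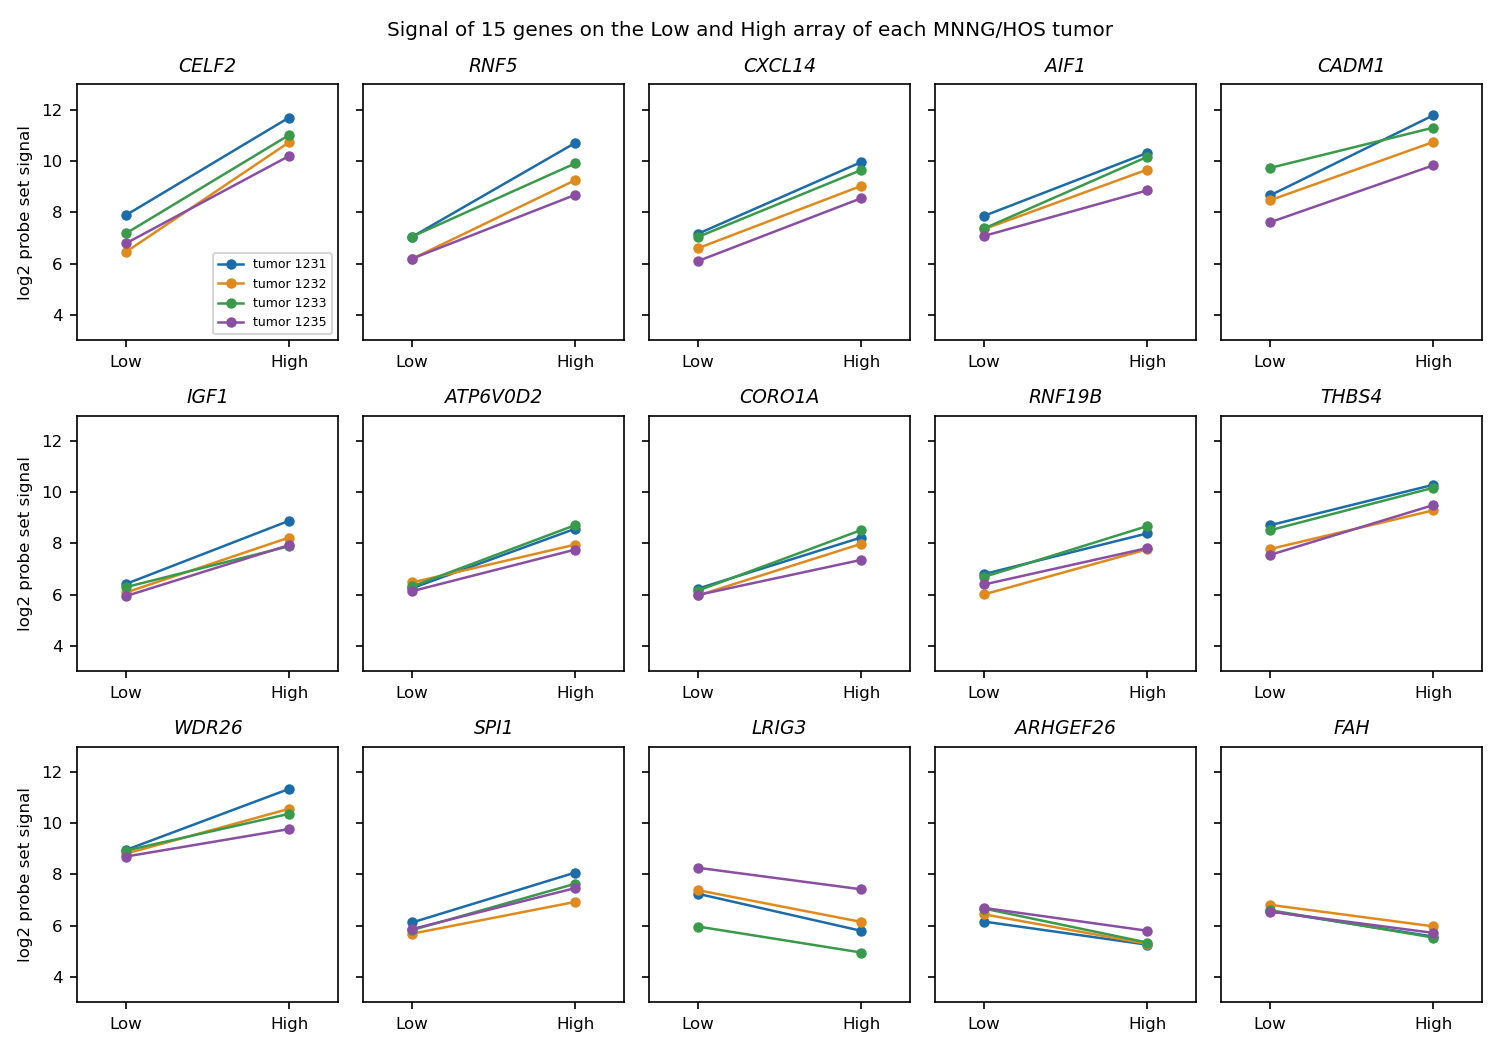
Log2 probe set signal of 12 increased and 3 decreased genes that met the naming rule, on the Low and High array of each tumor, joined by a line. Lines rise in the first 12 panels and fall for LRIG3, ARHGEF26 and FAH, in every tumor.

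The remaining genes over 2-fold higher in every tumor, chosen for mention after their values were seen, were less certain in their size. TMEFF2, NFIA and KCNA3 had Low means under the filter value of 5.36, which leaves the size of their increase uncertain. CYBB, the catalytic subunit of the phagocyte oxidase, read 7.41, 7.49, 7.16 and 6.39 in High and 5.49, 5.78, 5.37 and 5.33 in Low cells, a difference of 1.62 ± 0.16. CCDC80, a secreted matrix protein, rose by 1.49 ± 0.14, or by 0.643 with its probe sets averaged. For CPEB4, CDC42, ZEB2 and WWP2 another probe set of the same gene was called in the opposite direction. CDC42 is the clearest case: its representative probe set rose by 2.14 ± 0.18, while 2 of its other probe sets were called lower. Among called genes over 2-fold higher with several probe sets, 58.3% had another probe set called the same way and 19.4% had one called the opposite way. For all genes called higher the shares were 33.1% and 7.04%, and for all genes called lower 49% and 6.63%.

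Further genes that held after rescaling, also chosen after their values were seen, included MAP3K1, a kinase upstream of JNK signaling, which rose by 1.62 ± 0.20, or by 0.828 with its probe sets averaged. ALOX5AP, needed for leukotriene synthesis, rose by 1.23 ± 0.15. NFKBIA, the inhibitor of NF-kB that NF-kB itself induces, read 11.63, 11.63, 11.64 and 11.48 in High and 10.42, 10.78, 10.38 and 10.70 in Low cells. That is a difference of 1.02 ± 0.15, with High arrays nearly equal to each other. ABCA1, a cholesterol exporter, rose by 0.93 ± 0.16, or by 0.436 with its probe sets averaged.

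Decreases that held after rescaling were few and small. ARHGEF26 read 5.26, 5.29, 5.34 and 5.80 in High cells and 6.16, 6.44, 6.67 and 6.69 in Low cells, a difference of -1.07 ± 0.14 (limma, adjusted p = 0.00299). FAH, the last enzyme of tyrosine breakdown, fell in each tumor, with a difference of -0.93 ± 0.14, which became -0.253 and lost the call with its probe sets averaged. LRIG3, a leucine-rich repeat membrane protein, read 5.80, 6.15, 4.95 and 7.42 in High and 7.24, 7.38, 5.96 and 8.26 in Low cells. The groups overlap because the tumors differ in LRIG3 level, yet the Low array was the higher within each tumor, with a paired difference of -1.13 ± 0.15. The other 3, whose High mean lay under the filter value, were AMDHD1, CNTLN and PDE4B.

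Genes of cell division were lower in High cells. Of 50 mitotic spindle and kinetochore genes tested, 37 were called lower and 0 higher, against 25.7% and 12.1% of all genes. The median difference of the list was -0.578, against -0.186 for all genes. It was -0.54 in tumor MNNG-1231, -0.391 in tumor MNNG-1232, -0.881 in tumor MNNG-1233 and -0.409 in tumor MNNG-1235. Beside genes of like brightness the list was also low: 43 of the 50 genes lay below the median of all genes in their signal bin, at a median distance of -0.25. In tumor MNNG-1235, whose arrays were closest in spread, the same held for 45 of 50. After rescaling the list's median was -0.29 and none of its members was called.

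KIF15, a spindle kinesin, read 6.39, 6.32, 5.81 and 6.44 in High and 7.19, 6.96, 7.24 and 7.35 in Low cells, a difference of -0.95 ± 0.16 (limma, adjusted p = 0.00777). The mitotic kinase NEK2 differed by -0.92 ± 0.16. KIF20A, a kinesin of cytokinesis, differed by -0.85 ± 0.14, and FOXM1, the transcription factor of mitotic genes, by -0.79 ± 0.14. For each of these genes the High arrays all lay below the Low arrays. Members of the list that were not called include CDK1, the kinase that starts mitosis, at 0.11 ± 0.14, and PLK1, a kinase of centrosomes and spindle, at 0.09 ± 0.16. These kinases were chosen for mention after their values were seen.

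The promoters of 3 called mitotic genes are printed to show the elements through which such genes are known to be switched. The sequences are the 250 bases before the start of each gene on its own strand, from RefSeq on GRCh38.p14. Capitals mark CCAAT or TTTGAA, the CHR letters, on either strand. CDKN3, a phosphatase that acts on cell cycle kinases, differed by -0.79 ± 0.14, KIF4A, a kinesin of chromosomes, by -0.74 ± 0.13, and ECT2, the exchange factor that starts the cytokinesis furrow, by -0.86 ± 0.17. With its probe sets averaged ECT2 came to -0.269. All 3 genes are among the members of smallest p that were called lower and hold both motifs. Their positions are chr14:54396757-54397006 on the plus strand for CDKN3, chrX:70289854-70290103 on the plus strand for KIF4A and chr3:172750476-172750725 on the plus strand for ECT2.
CDKN3: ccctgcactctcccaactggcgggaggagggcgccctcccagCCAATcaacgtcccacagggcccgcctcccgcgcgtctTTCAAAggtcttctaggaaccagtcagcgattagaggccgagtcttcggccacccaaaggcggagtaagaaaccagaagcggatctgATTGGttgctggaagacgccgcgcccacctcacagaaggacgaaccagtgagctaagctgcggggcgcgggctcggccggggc
KIF4A: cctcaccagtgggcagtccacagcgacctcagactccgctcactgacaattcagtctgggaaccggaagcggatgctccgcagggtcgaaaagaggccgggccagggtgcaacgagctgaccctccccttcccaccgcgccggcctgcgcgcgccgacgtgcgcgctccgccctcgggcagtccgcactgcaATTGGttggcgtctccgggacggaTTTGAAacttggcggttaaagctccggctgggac
ECT2: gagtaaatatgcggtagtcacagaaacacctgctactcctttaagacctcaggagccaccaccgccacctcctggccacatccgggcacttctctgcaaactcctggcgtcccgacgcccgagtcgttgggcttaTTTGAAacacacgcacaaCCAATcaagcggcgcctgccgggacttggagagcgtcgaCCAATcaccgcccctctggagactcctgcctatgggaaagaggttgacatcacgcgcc

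RefSeq promoters were matched for 43 of the 50 mitotic genes. CCAAT was found in 81.4% of them, TTTGAA in 58.1% and both in 51.2%. Among all 27305 promoters of this length in the table the shares were 32.9%, 13.7% and 4.86%. In the 32 promoters of members called lower the shares were 84.4% for CCAAT, 59.4% for TTTGAA and 50% for both, and in the 11 of members not called they were 72.7%, 54.5% and 54.5%. A match is a description of the letters only. In 0.125% of all promoters 2 of the motifs searched shared a base.

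DNA replication genes were also lower. Of 52 tested, 34 were called lower and 1 higher, against 25.7% and 12.1% of all genes. The higher gene was the transcription factor E2F1, at 0.51 ± 0.16. The median difference of the list was -0.441, and 39 of the 52 lay below the median of all genes of like brightness. MCM10, an initiation factor, read 7.50, 7.44, 7.26 and 8.01 in High and 8.58, 8.18, 8.52 and 8.36 in Low cells, with a difference of -0.86 ± 0.17. The primase subunits PRIM1 and PRIM2 differed by -0.62 ± 0.14 and -0.72 ± 0.16, and RPA3, of the complex that coats single-stranded DNA, by -0.64 ± 0.15. RFC2, of the clamp loader, differed by -0.72 ± 0.17. PRIM1 was lower within each tumor although its High and Low arrays overlap.

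The 2 replication promoters printed next hold TTTNNCGC, letters like those of E2F sites, which are in capitals. POLE2, a subunit of a replicative polymerase, differed by -0.63 ± 0.15, and POLA1, the catalytic subunit of the priming polymerase, by -0.60 ± 0.16. The windows are chr14:49688215-49688464 on the minus strand for POLE2 and chrX:24693668-24693917 on the plus strand for POLA1.
POLE2: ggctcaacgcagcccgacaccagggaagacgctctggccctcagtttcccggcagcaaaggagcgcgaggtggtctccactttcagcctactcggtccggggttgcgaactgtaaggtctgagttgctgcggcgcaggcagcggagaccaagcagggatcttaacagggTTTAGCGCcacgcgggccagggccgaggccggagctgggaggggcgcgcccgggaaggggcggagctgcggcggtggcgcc
POLA1: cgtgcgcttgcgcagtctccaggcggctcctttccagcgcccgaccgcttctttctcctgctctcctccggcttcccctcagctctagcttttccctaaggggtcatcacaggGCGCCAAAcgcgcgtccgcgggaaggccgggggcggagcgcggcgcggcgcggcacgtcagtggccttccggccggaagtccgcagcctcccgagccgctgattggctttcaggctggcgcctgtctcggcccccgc

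These letters occurred in 33.3% of the 45 replication promoters matched and in 9.3% of the mitotic ones, against 5.87% of all promoters and 8.15% of those of genes tested. Of replication members called lower 28.6% held them, and of those not called 37.5%. TTTGAA occurred in 2.22% of the replication promoters.

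**Figure D4:**
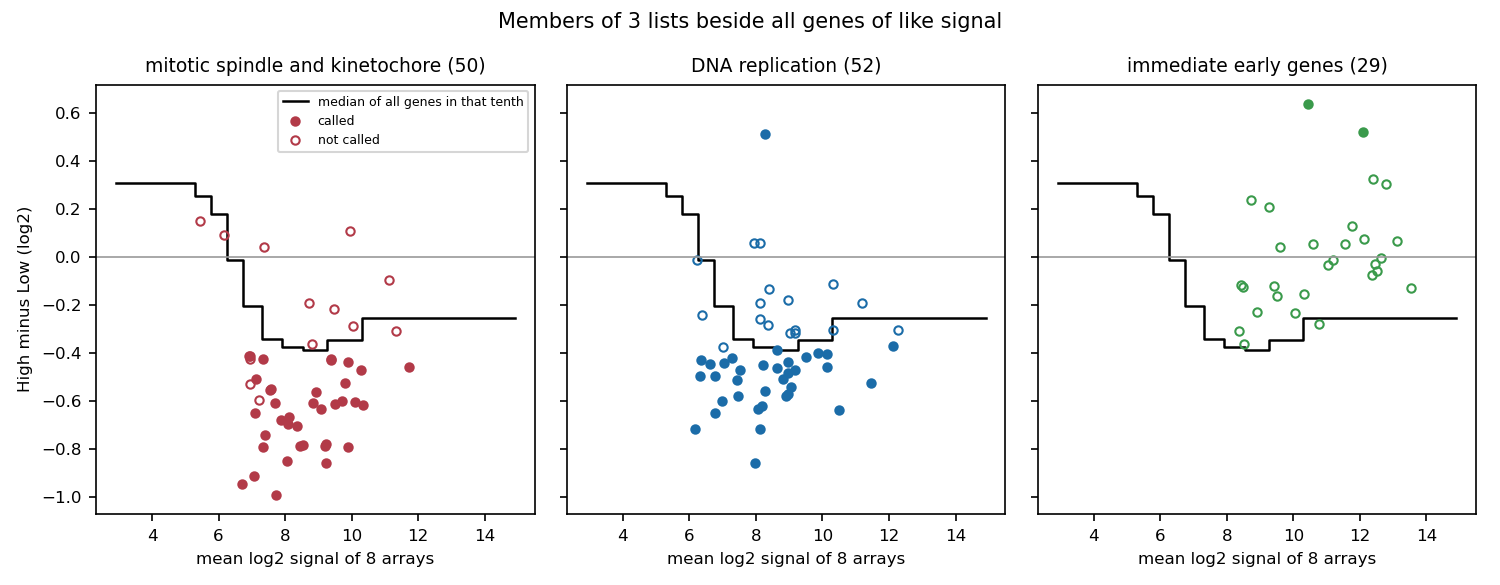
High minus Low (log2) of each tested gene of 3 lists against its mean log2 signal over the 8 arrays, with called genes filled. The black steps give the median of all genes in each signal bin. Most mitotic and DNA replication genes lie below the steps and 28 of 29 immediate early genes lie above them.

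DNA repair genes showed the same direction, with 26 of 49 called lower and 1 higher, against 25.7% and 12.1% of all genes. The median of the list was -0.463. CHEK1, the kinase of the replication checkpoint, differed by -0.87 ± 0.15, and 3 of its 4 probe sets were called lower. TIPIN, which stabilises stalled forks, differed by -0.79 ± 0.15, MRE11, a nuclease at DNA breaks, by -0.81 ± 0.16, and WRN, the helicase missing in Werner syndrome, by -0.86 ± 0.19. The repair list's median in tumor MNNG-1235 was -0.224, and 32 of 49 members there lay below the median of genes of like brightness.

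Among the lists on the mitochondrion and on ribosome assembly, 3 stood well above the share of lower calls over all genes, 25.7%, and the SLC25 carriers stood near it. Of 75 mitochondrial ribosomal proteins 43 were called lower and 0 higher (median -0.422), and MRPS9 differed by -0.86 ± 0.16. Of 52 oxidative phosphorylation subunits 26 were called lower and 0 higher (median -0.373), among them SDHD of complex II at -0.62 ± 0.15 and CYC1 of complex III at -0.56 ± 0.14. With its probe sets averaged SDHD came to -0.175. In tumor MNNG-1235 alone 70 of the 75 mitochondrial ribosomal proteins and 49 of the 52 oxidative phosphorylation subunits lay below the median of genes of like brightness. Ribosome biogenesis factors had 21 of 40 called lower, with NIP7 at -0.78 ± 0.15. Of 40 mitochondrial carriers of the SLC25 family 30% were called lower and 10% higher, near the shares of all genes. Among 56 cytosolic ribosomal proteins 0 were called lower by the limma fit and their median was -0.0834, yet 47 lay below 0 and in 24 all 4 High arrays lay below all 4 Low arrays. RPLP2 and RPL27A were called higher, at 1.46 ± 0.22 and 1.19 ± 0.23, on probe sets far dimmer than the list's median signal of 14.27. On the Low arrays RPLP2 read 5.71, 5.60, 5.49 and 5.41, and RPL27A read 8.03, 7.92, 7.71 and 7.80. With its probe sets averaged RPLP2 came to 0.78, so whether these mRNAs rose is uncertain.

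Some other lists held many lower genes. Of 43 cilium and intraflagellar transport genes 24 were called lower and 0 higher, against 25.7% and 12.1% of all genes. IFT74, which carries tubulin along the cilium, read 5.28, 6.10, 5.30 and 6.17 in High and 7.08, 6.76, 7.19 and 6.65 in Low cells, a difference of -1.21 ± 0.23. In ARL6, a GTPase of the BBSome pathway, the difference was -1.02 ± 0.17. The cilium list's median was -0.618 in tumor MNNG-1231 and -0.916 in tumor MNNG-1233 but -0.169 in tumor MNNG-1235, where 28 of 43 members lay below genes of like brightness at a median distance of -0.03. Of 19 cholesterol synthesis genes 11 were called lower, with INSIG1, a sterol sensor partner, at -0.73 ± 0.15 and HMGCS1, an early enzyme, at -0.66 ± 0.16, while the kinase MVK was higher at 0.62 ± 0.16. Zinc finger genes had 111 of 321 called lower, or 34.6% against 25.7% of all genes, and 23 higher, and in tumor MNNG-1235 164 lay below the median of genes of like brightness, at a median distance of -0.01. After rescaling the medians of the DNA repair (-0.242), oxidative phosphorylation (-0.208), cilium (-0.192), ribosome biogenesis (-0.166), cholesterol (-0.164), DNA replication (-0.162) and mitochondrial ribosomal (-0.149) lists stayed below 0. No member of these lists was called after rescaling.

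**Figure D5:**
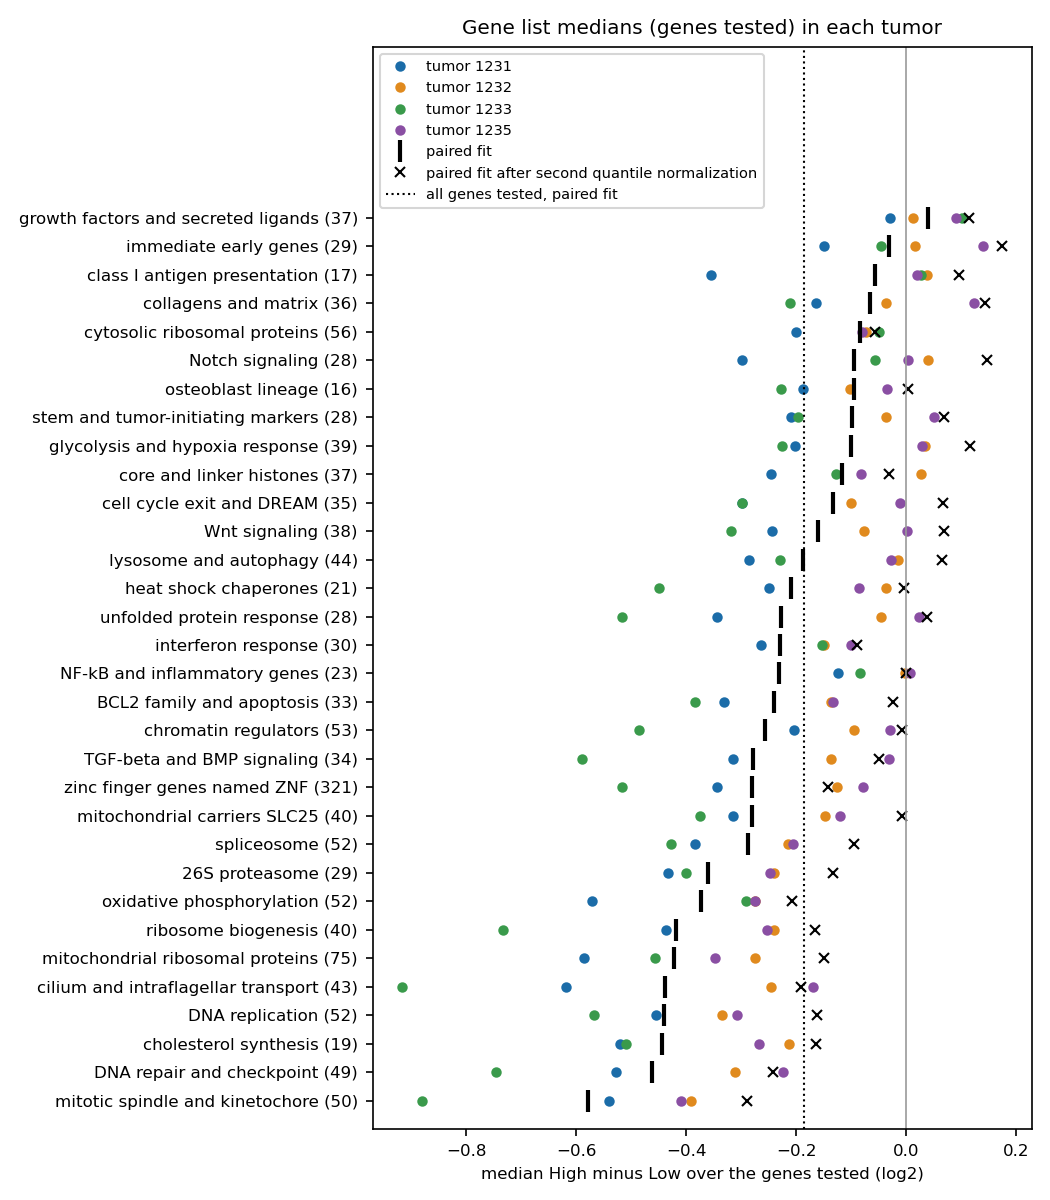
Median High minus Low (log2) of gene lists with at least 15 genes tested (the actin cytoskeleton list is not drawn), in each tumor (coloured points), in the paired fit (black bars) and after a second quantile normalization (crosses). The dotted line is the median of all genes tested, -0.186. Mitotic, DNA repair, cholesterol and DNA replication genes have the lowest medians.

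Lists that lay above genes of like brightness had few calls. Over all genes, 12.1% were called higher and 25.7% lower. Of 29 immediate early genes, which are induced within minutes of a stimulus, 2 were called higher and 0 lower. NR4A2 rose by 0.64 ± 0.14 and JUND by 0.52 ± 0.14, and EGR1 and KLF4 stood at 0.30 ± 0.14 and 0.32 ± 0.13 without passing the threshold. The list's median was -0.0309 in the deposited values, -0.138 after median centring and 0.174 after rescaling, each above that of all genes on the same scale, and 28 of its 29 members lay above the median of genes of like brightness. Of 36 collagen and matrix genes 3 were called higher and 2 lower (median -0.0652, or 0.143 after rescaling), and COL3A1, a fibrillar collagen, read 10.89, 11.23, 10.73 and 10.39 in High and 10.13, 10.95, 9.68 and 9.33 in Low cells. COL3A1 was higher within each tumor, at 0.79 ± 0.16, though 1 of its other probe sets was called lower. In the glycolysis and hypoxia list 2 of 39 were called higher and 2 lower, or 5.13% each. The higher genes were VEGFA, which drives vessel growth, at 0.60 ± 0.13 and ANGPTL4 at 0.59 ± 0.16.

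Among 37 growth factors and secreted ligands 6 were called higher and 3 lower (16.2% and 8.11%, against 12.1% and 25.7% of all genes). Their median was 0.0403, and 0.115 after rescaling but -0.0667 after median centring. Beside CXCL14, IGF1 and VEGFA the higher genes were HGF, the ligand of MET, at 1.02 ± 0.17, ANGPT2 at 0.60 ± 0.18 and PDGFA at 0.50 ± 0.15. With probe sets averaged ANGPT2 came to 0.328 and PDGFA to 0.146. Lower were IL11 at -0.60 ± 0.16, TGFB2 at -0.58 ± 0.19 and NRG1 at -0.52 ± 0.16, though NRG1 lay above 0 when its probe sets were averaged and TGFB2 did so when the GAPDH 3' minus 5' signal was added to the fit. HGF read 5.37, 5.39, 5.14 and 5.32 in Low cells, close to the filter value. In the NF-kB and inflammatory list 3 of 23 were higher and 3 lower, or 13% each, against 12.1% and 25.7% of all genes. Beside NFKBIA the higher genes were the chemokine CCL5 at 0.84 ± 0.16 and the adhesion molecule ICAM1 at 0.58 ± 0.17.

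Of 35 regulators of leaving the cell cycle 11.4% were called higher and 25.7% lower, near the shares of all genes (12.1% and 25.7%). BTG1, which restrains proliferation, rose by 0.72 ± 0.14, and E2F4, the E2F factor of the repressor complexes, by 0.67 ± 0.17. With probe sets averaged both came to 0.33, and the other tested probe set of E2F4, at -0.0112, was not called. RB1, the retinoblastoma protein, and CCND1, the cyclin that inactivates it, were lower at -0.65 ± 0.16 and -0.60 ± 0.15. Of 28 stem and tumor-initiating cell markers 10.7% were called higher and 25% lower, which is also near the shares of all genes. SOX2, a pluripotency factor, read 7.09, 7.17, 7.02 and 8.45 in High and 8.20, 7.75, 7.95 and 8.99 in Low cells, which is lower in each tumor at -0.79 ± 0.15, but only 1 of its 4 probe sets was called. NES, an intermediate filament of progenitors, differed by -0.76 ± 0.16, ALDH1A3 by -0.73 ± 0.18 and the histone methyltransferase EZH2 by -0.64 ± 0.16. Of 16 osteoblast genes 1 was called higher (6.25%) and 5 lower (31.25%), against 12.1% and 25.7% of all genes. The higher gene was PTH1R, the receptor of parathyroid hormone, at 0.90 ± 0.18. Lower genes included RUNX2, the master factor of the lineage, at -0.41 ± 0.14 and SPP1, osteopontin, at -0.67 ± 0.20. Averaged over its probe sets RUNX2 lay above 0.

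Markers of cell types other than tumor cells were mostly dim on all 8 arrays. Of 21 macrophage and myeloid markers 20 were on the array and 12 were tested. AIF1, SPI1, CYBB, FCER1G, ITGB2, C1QA and ITGAM were called higher and LAPTM5, a lysosomal protein of blood cells, lower at -0.40 ± 0.15. AIF1, SPI1 and CYBB held after rescaling. FCER1G, the signaling chain of Fc receptors, rose by 0.88 ± 0.15, and ITGB2, the beta chain of leukocyte integrins, by 0.86 ± 0.17. FCER1G and C1QA lay under the filter value on all 4 Low arrays and were tested only through brighter arrays, so the count of 7 is in part set by the filter. Over all genes 12.1% were called higher. In the second dimmest signal bin, where the median signal of the tested markers (5.66) lies, 25.9% were. The mean signal over the 20 markers ranged from 5.54 to 6.05 on the High arrays and from 5.09 to 5.22 on the Low arrays. CD14, a monocyte receptor, stood at 0.09 ± 0.16 and CSF1R, the receptor macrophages depend on, at 0.27 ± 0.15, and neither passed the threshold. The other 8 markers, CD163, TYROBP, C1QB, C1QC, MSR1, MRC1, LYZ and PTPRC, lay under the filter value on all 8 arrays. PTPRC, the pan-leukocyte antigen CD45, read 3.69 to 4.42 on High and 3.11 to 3.36 on Low arrays. The part of white blood cell RNA in the increases of AIF1, SPI1, CYBB, CORO1A and ATP6V0D2 was not tested.

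In the other marker lists, 20 of 64 genes tested were called higher, against 12.1% of all genes, and nearly all called genes were higher. There were 4 of 10 higher for fibroblasts and pericytes, 3 of 8 for skeletal muscle and for lung epithelium (with 1 lower in each), 3 of 5 for B and plasma cells, 2 of 3 for neutrophils, 2 of 5 for erythroid cells and 1 each for osteoclasts, T and NK cells and endothelium. None of 5 adipocyte markers was called. Of these 20 higher genes 6 (LTF, CD8A, BLK, DES, LAMP3 and AQP5) lay under the filter value on all 4 Low arrays and could enter the test only through brighter arrays, so the counts support nothing about these cell types. The tested genes of these lists have median signals below that of all genes, and dim genes rose in general. Of all genes in the dimmest signal bin 31% were called higher, and in the fourth bin 16.1%.

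Counting arrays alone, 1496 genes (10.4%) had all 4 High arrays above all 4 Low arrays and 2803 (19.4%) had all 4 below. Of the 50 mitotic genes 28 were in the second group and 0 in the first. Of the 52 oxidative phosphorylation genes 37 were in the second group.

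In the second line, 143B, the same sort gave 3 High and 5 Low arrays, all of a date tag that no MNNG/HOS array carries, so tag and line cannot be told apart. The 143B High arrays titled 51&52 and 54&55 are pools of tumors. They are not single-tumor replicates, and the 143B arrays were not paired. CXCL14 differed there by 2.65 ± 0.38, THBS4 by 1.39 ± 0.31 and CELF2 by 0.67 ± 0.30, and the median of the mitotic list was 0.146. A test of the difference between lines over the 16 bone tumor arrays called 1 gene, CELF2 (0.00694% of genes tested), whose increase was larger in MNNG/HOS by 3.16 ± 0.42 (limma, adjusted p = 0.0115). For the mitotic genes the difference between lines did not reach the threshold, with FOXM1 at an adjusted p of 0.16 as an example.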

How the data were processed

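Total RNA of sorted cells was hybridised to Affymetrix 3' expression arrays. Per the submitters' processing notes the authors used RMA, and each deposited value is the log2 signal of a probe set. RMA sets the probe intensities of all arrays it handles to a shared distribution before it summarises them as probe sets. The deposited probe set values differ in spread, which by itself does not tell which arrays were run together. The RMA version and the arrays run together are not given in the labels or notes used here. No detection call was used, and the number of arrays limits the precision.

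The platform annotation gave 1 gene to 41097 of 54675 probe sets, several to 1801 and none to 11777; only the first kind was used. A RefSeq table (GRCh38.p14) held 19735 of the 19775 genes, with 0 symbols changed. The probe set of highest mean signal over 18 arrays stood for a gene, and a gene was tested if 3 or more arrays reached the table's median, 5.36.

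Groups and tumor numbers came from the sample titles. High and Low arrays of the 4 tumors were compared in R 4.3.3 with limma 3.58.1 (lmFit, eBayes) with tumor as a replicate block, Benjamini-Hochberg adjustment over 14418 genes and a threshold of 0.05. Values written a ± b are log2 differences with their standard error unless SD is given. The tumors' numbers mark the same animal's tumor, and deviations from the group means correlated between same-numbered arrays with r of 0.494, 0.37, 0.299 and 0.579. The highest r of each High array with the Low array of another tumor was -0.111, 0.0928, 0.202 and -0.0898, so the gap was smallest for tumor MNNG-1233. The interaction test used the 16 bone tumor arrays without a block. On data simulated from these arrays the paired fit recovered 14.9% of 1.5-fold, 64.2% of 2-fold and 98.5% of 4-fold changes, with 1 false call among 14418 genes. That count does not measure how many of the 5458 calls on the real arrays follow the scaling or the date tag.

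The genes named are the 12 largest increases and the 12 largest decreases that were called, had the same sign in all 4 tumors, group means of at least 5.36, the same call after a second quantile normalization and no probe set called the opposite way (27 increases and 3 decreases met this), and up to 6 members of smallest p per list. Exceptions are named as such. The comparison and the 44 gene lists were chosen with earlier results of these data known. Lists are described by counts and medians, with no set test. Promoter letters were searched in Python 3.11.15 in the 250 bases before the RefSeq start of 27305 genes. Alternatives covered scaling, filter, probe set choice, block, covariates, arrays in the fit and tumors left out.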

Additional observations from a re-analysis of the deposited data

Results flagged for a closer look

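In the High group ARHGEF26 had 1 value far from the other 3: tumor MNNG-1235 read 5.801 on the log2 scale and the others 5.26 to 5.34. Of 40 sets of 4 arrays examined (15 genes and 5 array measures in each fraction) this was the 1 found, and chance alone gives about 1 in 20 such sets. CELF2 differed between the lines: High minus Low was larger in MNNG/HOS than in 143B by 3.16 in log2 (interaction in limma over 16 arrays, adjusted p = 0.0115), with an increase in 4 of 4 MNNG/HOS tumors.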

How the results depend on the processing

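The counts of called genes depended strongly on the processing. The direction of the named genes was in part fixed by the rule that chose them. Against 5458 genes called (1750 higher and 3708 lower), the fit without the replicate block called 2317 (799 and 1518), and in the fit over all 18 arrays without the block 2229 were lower. A second quantile normalization left 39 (33 and 6), with 5024 genes at an unadjusted p under 0.05, and after median centring 1045 were higher. Adjusting for the 3' minus 5' signal of GAPDH, 64 were called (46 and 18), and with the date tag 0 (0 and 0). Of alternatives added after seeing the data, a second quantile normalization of the 8 arrays alone gave 48 (41 and 7), that normalization in the 18-array fit without the block 1028 (744 and 284), and leaving out tumors MNNG-1231 and MNNG-1233 together 13 (13 and 0, with 4709 genes at an unadjusted p under 0.05). Leaving out 1 tumor at a time gave 3 to 6341 genes, 3 to 2138 of them higher and 0 to 4203 lower. The lowest values are those without tumor MNNG-1231, where 3916 genes had an unadjusted p under 0.05. The causes were not tested. In the other fits, over 16 arrays, with array weights, with other filters or with other probe sets, the total was within 1.5 times the main count.

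A median is said to have moved if it changed by at least the SD of its 4 tumor values. Of 45 medians (44 lists and all genes), 17 changed sign and 30 moved with the GAPDH covariate. The counts were 12 and 28 after the second quantile normalization and 5 and 4 with array weights. With the date tag they were 1 and 13, and without tumors MNNG-1231 and MNNG-1233 they were 7 and 10. Directions reversed for 6 genes. Of 117 genes followed, 42 kept their sign but were over 1.5 times smaller with the mean over probe sets, where NRG1 came to 0.0848, RUNX2 to 0.0888 and STAT3 to -0.0935. Without x_at and s_at type probe sets CDC42 came to -0.456, MCAM to 0.489 and STAT3 to -0.348, and with the GAPDH covariate TGFB2 came to 0.155. The 12 named increases and 3 named decreases kept their direction in every alternative in which they were tested. All 15 lost the call with the date tag. Their naming rule asked for the same sign in all 4 tumors and the same call after the second quantile normalization. Leaving out tumors, the date tag and that normalization could therefore not reverse them. Signal near background limits the genes whose Low or High mean lies under 5.36. With the arrays paired by tumor, an alternative added after seeing the data, the differences in interquartile range (-0.378), median signal (0.107), GAPDH 3' minus 5' signal (0.215) and hybridization controls (1.132) no longer passed, at the smallest exact p of 0.125 that 4 pairs allow. Without tumor MNNG-1231 1 of the 45 medians moved, that of NF-kB and inflammatory genes, and 2 changed sign. Leaving out 1 of 4 tumors can seldom shift a median by the SD of its 4 tumor values. The low count therefore says little about dependence on tumor MNNG-1231.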
